A study of Mus musculus with 6 samples.

Results

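The cytosolic ribosomal protein genes encode the protein part of the ribosome that translates nuclear messages. They were taken here as the nuclear protein-coding genes of the count table whose symbols are Rpl or Rps with a number and at most an a or x after it, together with Rplp0, Rplp1, Rplp2 and Rpsa. The rule found 76 genes among 21461 nuclear protein-coding genes, of which 46 encode proteins of the large subunit and 30 encode proteins of the small subunit. The symbol rule itself uses no measured value. All 76 had counts in the control pool, where the lowest, median and highest gene had 9, 1268.5 and 8926 counts. Detection alone does not check the label, because the genes were chosen by symbol.

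Tumours were grown from B16F10 mouse melanoma cells injected under the skin of 8-week-old female C57BL/6J mice, which keep a complete immune system. The control mice received DMSO and control IgG, and the other groups received DMSO with anti-PD-1 antibody, AZD5363 and MK1775 with control IgG, AZD5363 and MK1775 with anti-PD-1, KS100 with control IgG, or KS100 with anti-PD-1. AZD5363 inhibits AKT, MK1775 inhibits WEE1, KS100 inhibits aldehyde dehydrogenases, and anti-PD-1 blocks an inhibitory receptor of T cells. RNA was extracted from tumours combined by treatment, and dosing ran until control tumours reached 2000 mm3, so each of the 6 treatments is 1 library from 1 pool and has no replicate. Every pool came from one cell line in one host strain.

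Each ribosome holds a single copy of most of these proteins, and cells keep their amounts in balance. Their messages belong to the TOP class, which begins with a run of pyrimidines and whose translation rises and falls with mTORC1, a kinase complex that acts downstream of AKT. Ribosomal protein messages are short, abundant and copied into the genome as many processed pseudogenes, so single-gene counts can lose reads to, or gain reads from, near-identical copies.

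Start regions of 6 genes are printed to show the pyrimidine runs of the class in genes from opposite ends of the family in AZD5363+MK1775+anti-PD-1. The stalk genes Rplp0 and Rplp2 and Rpsa stood toward the high end there, and Rpl37, Rpl28 and Rps7 toward the low end. Other pools had another order. In KS100 with control IgG, Rplp0 held 0.117% of the family's counts against 0.539% in control, and Rpl37 held 4.94% against 2.56%. Each stretch runs 5′ to 3′ from 45 bases before to 20 bases after the first listed RefSeq start (build GRCm38.p6), and capitals mark its longest run of C and T.
Rplp0: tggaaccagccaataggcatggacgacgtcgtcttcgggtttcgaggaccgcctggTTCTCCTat
Rplp2: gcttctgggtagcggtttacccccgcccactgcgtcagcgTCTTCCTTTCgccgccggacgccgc
Rpsa: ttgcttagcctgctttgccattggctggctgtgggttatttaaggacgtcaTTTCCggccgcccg
Rpl37: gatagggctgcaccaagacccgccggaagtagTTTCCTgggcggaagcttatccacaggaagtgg
Rpl28: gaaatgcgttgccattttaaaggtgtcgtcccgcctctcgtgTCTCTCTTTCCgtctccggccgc
Rps7: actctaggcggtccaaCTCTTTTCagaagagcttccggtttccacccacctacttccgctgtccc
They lie at chr5:115559422-115559486 (plus strand), chr7:141447606-141447670 (plus strand), chr9:120127721-120127785 (plus strand), chr15:5116568-5116632 (plus strand), chr7:4792920-4792984 (plus strand) and chr12:28635934-28635998 (minus strand). The run was 7, 10, 5, 6, 11 and 8 bases long in that order, and it spanned the listed start in Rplp2 and Rpl28.

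The RefSeq table held 56 of the 76 genes, with 66 starts, and 4 motifs were searched in windows from 250 bases before to 50 after each start. A gene counted as holding a motif if any of its starts did. A run of at least 8 pyrimidines on the gene's strand within 50 bases of the start was present in 48 of 56 genes (85.7%), against 39.3% of all 27025 genes in the table. The ETS core CCGGAAG, searched on both strands, was present in 23 (41.1%) against 9.93%. The YY1 core AAGATGGCG, searched on both strands, was present in 3 (5.36%) against 1.64%. The TATA box TATAAA on the gene's strand in the 50 bases before the start was present in 0 of 56, against 3.15%. These matches describe letters in the windows and are not evidence of binding.

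The pools differed widely in depth, with totals from 25521 to 1591673 counts. Mitochondrial transcripts made up 1.29% to 1.89% of counts where no inhibitor was given and 13.2% to 19.8% in the 4 inhibitor pools. Ribosomal RNA genes, taken as mt-Rnr1, mt-Rnr2 and Gm42418, reached 27.4% in AZD5363+MK1775+anti-PD-1. The mt-Rnr1 and mt-Rnr2 counts are part of both shares, so the shares overlap and cannot be added. Melanocyte markers (6 of 6 detected in the control pool) made up 1.91% of counts in control and 0.235% in KS100+anti-PD-1, with 1 of the 6 at 0 in that pool. Their share was 1.61% in anti-PD-1, 0.901% in AZD5363+MK1775, 0.954% in AZD5363+MK1775+anti-PD-1 and 0.413% in KS100. The 5 skeletal muscle markers were all at 0 in AZD5363+MK1775 and summed to 0.707% in AZD5363+MK1775+anti-PD-1, against 0.00459% in control. Of the other marker lists, fibroblast genes (5) summed to 13.7 times control in anti-PD-1 and 6.26 times in AZD5363+MK1775+anti-PD-1, and macrophage genes (6) to 2.78 and 5.95 times. Erythroid genes (4) were at 6.19 and 0.184 times control and skeletal muscle genes at 13.9 and 249 times in the same 2 pools, and endothelial genes (5) at 2.16 and 1.16 times. Single markers were uneven in AZD5363+MK1775+anti-PD-1. C1qa held 82 of the 105 macrophage counts, and Lyz2 was at 0.707 times control. Hbb-bs and Hbb-bt were at 0.0315 and 0.175 times control, while Hba-a1 and Hba-a2 were at 3.1 and 1.41 times. In AZD5363+MK1775, a pool of only 26639 counts, the macrophage and endothelial lists were at 0 throughout, like the skeletal muscle list. The upper limits of the exact intervals were 1.55 times control for macrophage, 0.83 for endothelial and 2.88 for skeletal muscle genes. At this depth the macrophage and muscle zeros therefore do not set the pool apart from control, and only the endothelial limit lies below control. In KS100 and KS100+anti-PD-1 the fibroblast genes were at 4.56 and 5.35 times control, on 18 and 11 counts. Skeletal muscle genes were at 5.69 and 18.2 times there, on 9 and 15 counts. Erythroid genes were at 0.305 and 0.195 times, on 6 and 2 counts. T cell genes (6) summed to at most 6 counts in any pool. Fewer cells of a type and less RNA per cell cannot be told apart in such pools, and the part these differences play in the results below was not tested.

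The ribosomal protein genes took a share between 8.13% and 10.5% in 4 pools and a much smaller one in both inhibitor pools that also received the antibody. They made up 8.13% of nuclear protein-coding counts in control (95% exact interval 8.09 to 8.18), 8.28% in anti-PD-1 (8.23 to 8.34), 10.3% in AZD5363+MK1775 (9.87 to 10.7) and 10.5% in KS100 (10.2 to 10.8). The share was 3.85% in AZD5363+MK1775+anti-PD-1 (3.77 to 3.93) and 3.34% in KS100+anti-PD-1 (3.06 to 3.64). These intervals cover counting error only, since the counts carry no molecular identifiers and no group has a second pool. The counts behind them were 125162, 80686, 2239, 8460, 3421 and 509 in the order in which the treatments were introduced above, with control first and KS100 plus antibody last, and all lists of 6 values below keep that order. Large subunit counts per small subunit count were 1.25, 1.21, 1.21, 1.49, 1.04 and 1.30. The large subunit's share of the family was 55.6% in control (55.3 to 55.9), 59.8% in AZD5363+MK1775+anti-PD-1 (58.8 to 60.9) and 51.0% in KS100 (49.4 to 52.7). The summed balance of the subunits thus differed from control beyond counting error in opposite directions in these 2 pools. In AZD5363+MK1775+anti-PD-1, however, Rplp1 alone held 16.2% of the family against 7.13% in control, and Rplp2 held 4.10% against 1.05%. Both are large subunit genes, so the higher share there is not shown to hold across that subunit.

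**Figure D1:**
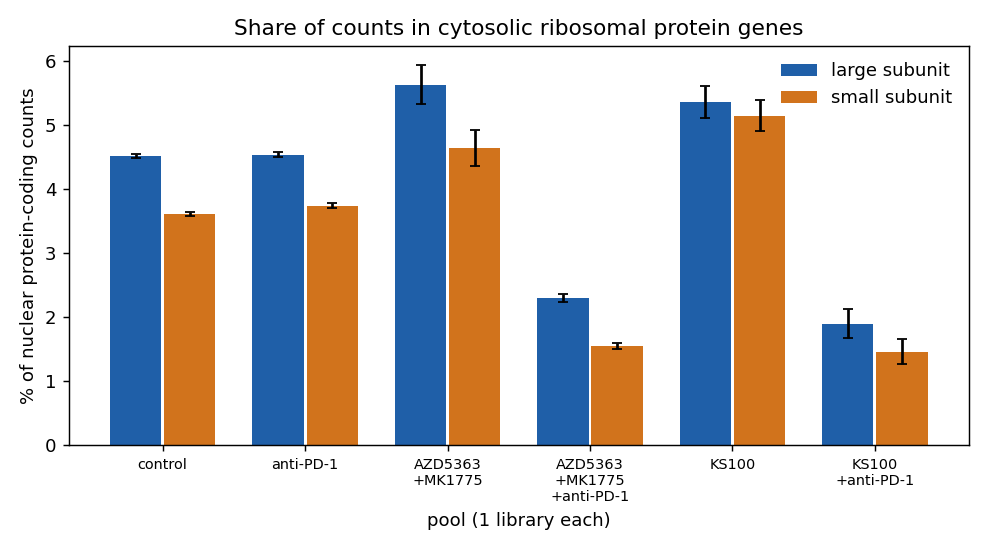
Bars give the share of nuclear protein-coding counts (%, y axis) held by large and small subunit genes in each of the 6 pools (x axis), with 95% exact binomial intervals. Both subunits are lowest in AZD5363+MK1775+anti-PD-1 and KS100+anti-PD-1.

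Single genes were compared between 2 pools on TMM-scaled counts, TMM being a scaling that centres most genes on no change. The rule for calling a gene higher or lower asked for 20 or more counts in either pool, a ratio of 2 or more up or down, and a 95% exact conditional interval that excluded every ratio under 1.5-fold. This is a rule of size and not a test. The percentage of all genes meeting the same rule in a comparison is given as its background. It belongs to TMM, and calls given under other scalings have no background beside them. In pools of low depth a gene with few control counts cannot be called lower even at 0 counts. The background for lower calls is then no neutral reference.

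With the antibody alone the family sum was close to control. The summed ratio of the anti-PD-1 pool to control was 0.996 (0.987 to 1.00), with 0.982 for the large and 1.01 for the small subunit. None of 75 genes was higher (background 2.69%) and 9 were lower (background 2.14%). Rpl28, a large subunit protein, had 1273 counts in control and 315 in anti-PD-1, a ratio of 0.382 (0.337 to 0.433). Rpl35, at the exit of the peptide tunnel, had 650 and 118 counts and a ratio of 0.280 (0.228 to 0.342). Rps27a, made as a fusion with ubiquitin, had 933 and 238 counts and a ratio of 0.394 (0.340 to 0.455). The other genes lower included Rpl10, Rpl15, Rpl30, Rps6 and Rps15, with ratios from 0.257 to 0.499. Rpl30 missed the rule under 3 of the 4 other scalings, at ratios from 0.508 to 0.513.

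AZD5363+MK1775 without the antibody likewise had a summed ratio near 1, at 0.995 (0.954 to 1.04). Of 75 genes 3 were higher (background 1.65%) and 4 were lower (background 1.28%), a split that became 6 higher and 2 lower when scaled to nuclear protein-coding totals. Rpl37, a zinc-binding protein of the large subunit, had 3208 counts in control and 131 in the much shallower inhibitor pool, a ratio of 2.27 (1.89 to 2.70). Rpl14 and Rps26 had ratios of 2.23 and 2.16. Rpl7a, Rps12, Rps23 and Rps2 were lower on 1 to 6 counts in the inhibitor pool, with ratios from 0.0769 to 0.295.

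In KS100 without the antibody more genes of the family were higher than lower. The summed ratio to control was 1.26 (1.22 to 1.31), with 1.16 for the large and 1.39 for the small subunit, but it was 0.972 when scaled to library totals. Of 75 genes 8 were higher (background 4.5%) and 1 was lower (background 1.86%), or 6 and 4 with library totals. Rps27 had 873 counts in control and 88 in KS100, a ratio of 4.65 (3.69 to 5.80). Rpl9 followed at 3.21 (2.43 to 4.18) and Rps19, the gene most often mutated in Diamond-Blackfan anaemia, at 2.87 (2.15 to 3.75). Rpl26, Rps15a, Rpl37, Rps27a and Rps6 were also higher, Rps6 on 6 counts. Rpl23a was lower, with 6 counts and a ratio of 0.286 (0.105 to 0.624).

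With AZD5363+MK1775 and the antibody together the family sum stood at 0.514 of control (0.502 to 0.525), 0.553 for the large and 0.465 for the small subunit. With library totals, which move every log2 ratio in this comparison by -0.69, the sum was 0.318. Of 75 genes 43 were lower, against a background of 8.02%, and 1 was higher, against 14.9%. The median gene had a ratio of 0.418 (0.422 in the large and 0.412 in the small subunit), while the median of all genes tested was 0.995. Rps7, a small subunit protein needed for ribosome assembly, had 1890 counts in control and 28 here, a ratio of 0.113 (0.0746 to 0.163). Rpl41, Rpl31 and Rpl36, all of the large subunit, had ratios of 0.130 (0.0867 to 0.187), 0.131 (0.102 to 0.167) and 0.132 (0.0865 to 0.192). Rpl11, which with Rpl5 carries 5S ribosomal RNA and can bind MDM2, had 1984 and 55 counts and a ratio of 0.211 (0.158 to 0.275). Rpl5 had 1259 and 50 counts and a ratio of 0.302 (0.223 to 0.400). The counts expected in these genes from the background rate of genes silent in both uninhibited pools were 7.36 of 8460, so that rate was small beside them.

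KS100+anti-PD-1 had the smallest sum, 0.360 of control (0.329 to 0.393), on 509 counts in all. Of 75 genes 30 were lower (background 2.86%) and 0 were higher (background 4.59%). The median gene had a ratio of 0.335, while the median of all 7948 genes tested was 0.175. A gene could enter through 20 counts in control alone (1591673 counts in all, against 25521 here). Yet a gene with 480 counts in control and 0 here missed the call of lower. The background is thus no neutral reference in this comparison. Only 3 genes had 20 counts or more in this pool, so most of these ratios rest on few reads. Rpl28 was not detected, which puts it at least 4.79-fold lower than control when 3 counts are taken as the limit that 0 allows, and Rps16, also undetected, was at least 3.60-fold lower. Rpl37 had 1 count against 3208 in control, a ratio of 0.0276 (0.000698 to 0.154). The background rate predicted 14.1 of the 509 counts. Both comparisons with control use the same control pool.

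**Figure D2:**
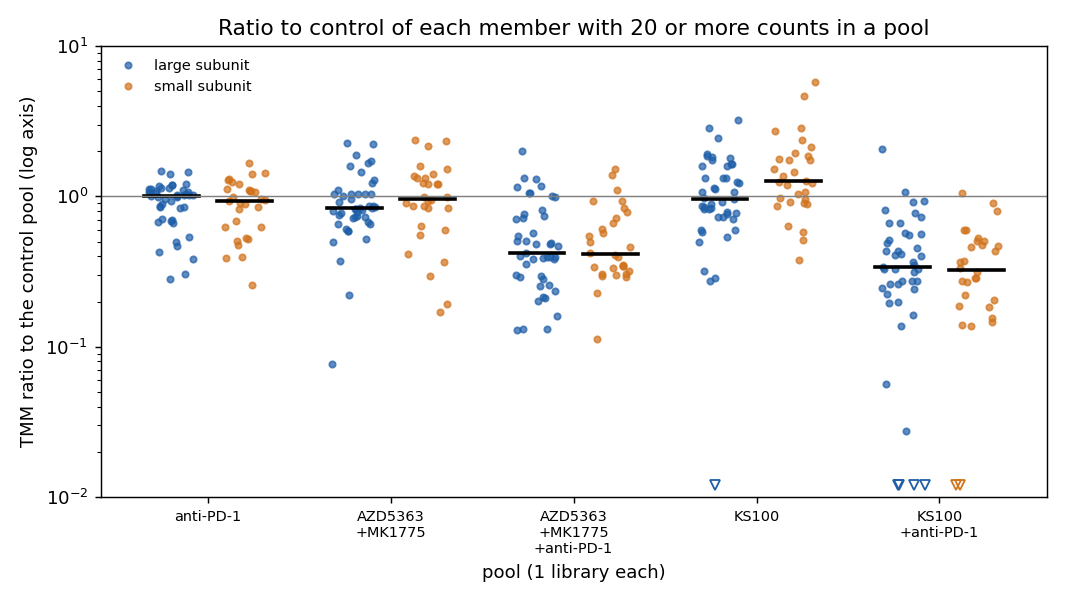
Points give the TMM ratio to control (y axis, log scale) of each large or small subunit gene that reached 20 counts in either pool, for the 5 treated pools (x axis); black lines are medians and open triangles are genes with 0 counts in the treated pool. The median over both subunits is 0.418 in AZD5363+MK1775+anti-PD-1 and 0.335 in KS100+anti-PD-1, against 0.866 to 1.07 in the other 3 pools.

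Adding the antibody within an inhibitor arm gave 2 comparisons that share no pool with each other. Within AZD5363+MK1775 the summed ratio was 0.516 (0.493 to 0.541). With TMM 28 of 70 genes were lower (background 3.72%) and 1 was higher (background 11.1%). Library totals, which move every log2 ratio in this comparison by -0.80, gave a summed ratio of 0.297. Under them 46 genes were lower and 0 higher, but the share of all genes under that scaling is not given. The median of all genes tested was 1.21 on the log2 scale against -1.02 for these genes. A gene could enter through 20 counts in the deeper pool alone (338474 counts in all with the antibody, 26639 without), which favours high ratios. The filter thus sets part of the all-gene median and background, which are no neutral reference. Within KS100 the summed ratio was 0.285 (0.260 to 0.313), and 29 of 52 genes were lower (background 34.0%) and 0 higher (background 4.31%). The background in the KS100 arm rests on 209 genes only, and their own median was -1.51. Of the family, 52 genes reached 20 counts in KS100 and 3 in KS100+anti-PD-1, so in this arm the filter favours low ratios. The rule called 17 genes lower in both arms, out of 28 and out of 29. They were 32.7% of the 52 that could be compared in both, against 19.1% of all 194 such genes, a set that includes them. They were Rpl9, Rpl11, Rpl22, Rpl26, Rpl31, Rpl32, Rpl36, Rpl37, Rps3, Rps7, Rps9, Rps13, Rps20, Rps21, Rps25, Rps26 and Rps29. Whether the antibody's effect differed between the arms was not tested.

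Among the genes lower in both arms, Rpl37 had 3208, 1936, 131, 100, 169 and 1 counts, or 2100, 1958, 4769, 497, 5106 and 58.0 CPM, which are TMM-scaled counts per 1000000. Both pools with an inhibitor alone were above control and both pools with inhibitor and antibody were below every other pool. Its ratio was 0.104 (0.0796 to 0.136) within AZD5363+MK1775 and 0.0114 (0.000286 to 0.0641) within KS100. Rps7 had 1890, 843, 14, 28, 50 and 4 counts, or 1237, 852, 510, 139, 1511 and 232 CPM. Rpl28 had 1273, 315, 14, 27, 16 and 0 counts, or 834, 319, 510, 134, 483 and 0 CPM. It was below control in all 5 treated pools, although the interval in AZD5363+MK1775 (0.333 to 1.03) reached 1. No 50-base word in the last 300 bases of the principal annotated transcripts of Rpl37 and Rpl28 occurs in a transcript of another annotated gene. Of those of Rps7, 8.0% do.

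The small subunit genes with the most counts in control included Rps9, Rps20 and Rps29. Rps9 had 6171, 4348, 93, 244, 142 and 30 counts, or 4040, 4397, 3385, 1214, 4290 and 1739 CPM, so the pools with inhibitor and antibody were the lowest. Rps20 had 4615, 3638, 133, 282, 151 and 15 counts, or 3022, 3679, 4842, 1403, 4562 and 869 CPM. Rps29, a zinc-binding protein, had 4488, 2626, 76, 171, 122 and 7 counts, or 2939, 2655, 2767, 851, 3686 and 406 CPM. In all 3 genes both pools with inhibitor and antibody lay below the other 4. Rps6, the substrate of the S6 kinases downstream of mTORC1, had 48, 8, 2, 5, 6 and 0 counts, too few to order most of the pools.

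The stalk genes did not follow the rest in AZD5363+MK1775+anti-PD-1. Rplp0 anchors Rplp1 and Rplp2 in the flexible stalk that recruits elongation factors. Rplp1 had 8926, 6961, 167, 1371, 171 and 42 counts, or 5844, 7039, 6079, 6819, 5166 and 2434 CPM, and only KS100+anti-PD-1 stood well below the others. Rplp2 had 1313, 842, 16, 347, 17 and 5 counts, or 860, 851, 582, 1726, 514 and 290 CPM. Its ratio to control in AZD5363+MK1775+anti-PD-1 was 2.01 (1.78 to 2.26), just past the rule, and under the 4 other scalings it was 1.24 to 1.97 and missed it. Rplp0 had 675, 521, 8, 103, 4 and 7 counts and a ratio of 1.16 (0.933 to 1.43) in that pool. Rpsa, a small subunit protein also known as the laminin receptor precursor, had 948, 784, 17, 191, 36 and 4 counts and a ratio of 1.53 (1.30 to 1.79).

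**Figure D3:**
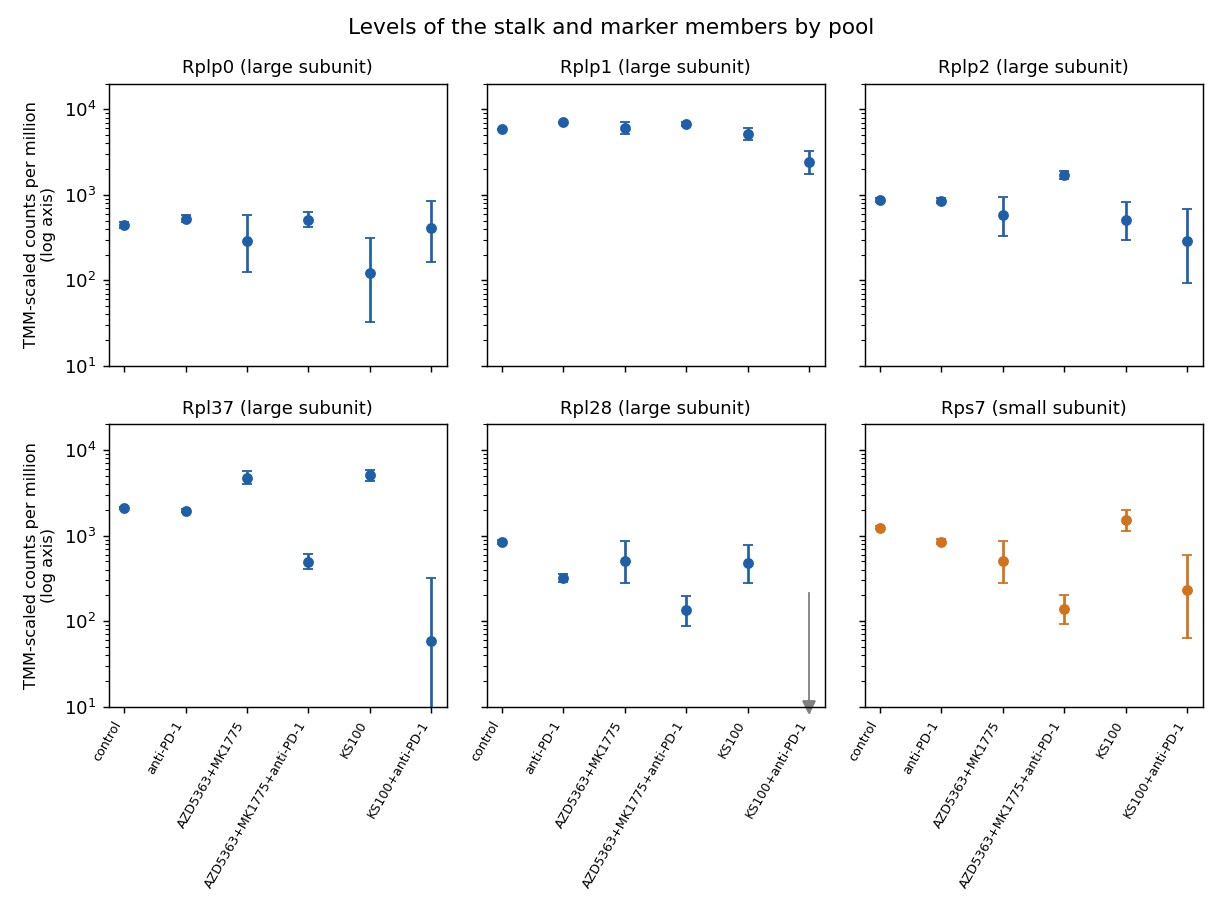
Points give TMM-scaled CPM (y axis, log scale) of Rplp0, Rplp1, Rplp2, Rpl37, Rpl28 and Rps7 in each of the 6 pools (x axis), with 95% Poisson intervals that cover counting error only; the grey arrow marks 0 counts of Rpl28 and its upper limit. Rpl37 and Rps7 are lowest in the 2 pools with inhibitor and antibody, and Rplp2 is highest in AZD5363+MK1775+anti-PD-1.

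The unevenness can be read without any library scaling by dividing each gene's share of the family total in 1 pool by its share in control. By the same rule of size, 9 genes in AZD5363+MK1775+anti-PD-1 stood above the family and 10 stood below it. Those above included Rplp2 at 3.91 (3.46 to 4.40), Rpsa at 2.98 (2.54 to 3.49), Rps14 at 2.69 (2.31 to 3.11) and Rpl14, Rpl27a, Rplp0, Rplp1 and Rps15a at 2.04 to 2.27. Those below included Rps7 at 0.219 (0.145 to 0.318), Rpl41 at 0.253 (0.169 to 0.364), Rpl31, Rpl36, Rpl28, Rpl39, Rpl11, Rpl13 and Rpl37, with ratios up to 0.461. In KS100+anti-PD-1 the rule was met by 2 genes, Rpl17 above and Rpl37 below, on 7 counts and 1 count. The genes Rps14, Rpl10, Rpl17, Rpl22 and Rpl27a lie outside the naming rule and were named after their values were seen.

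**Figure D4:**
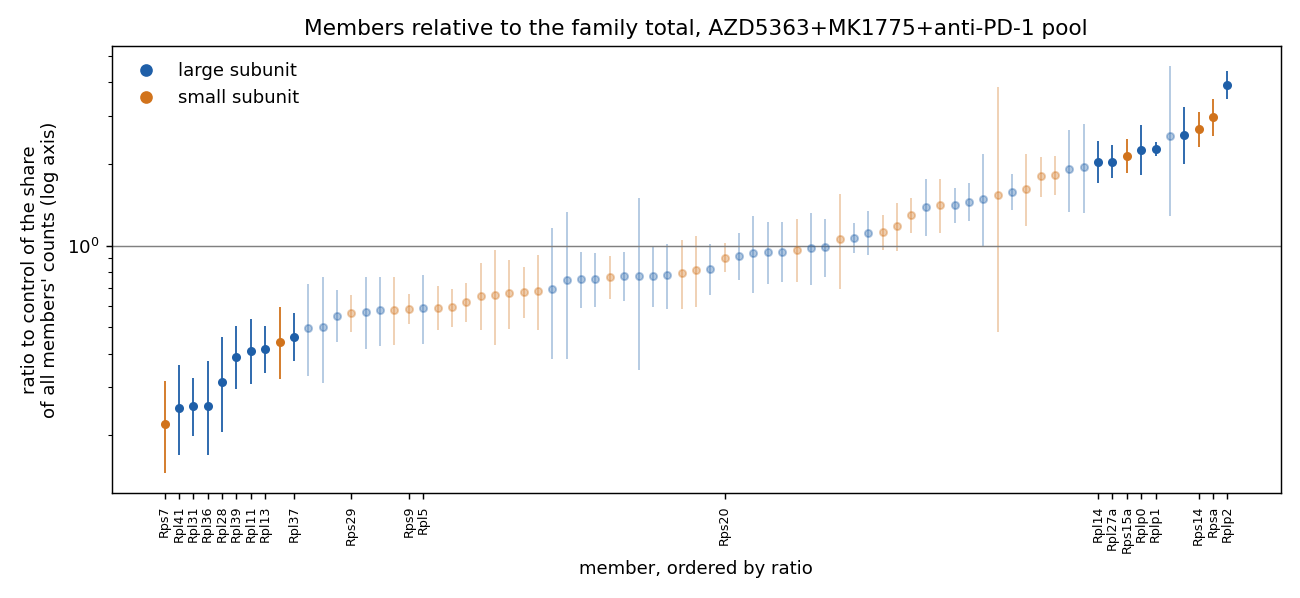
Each point is 1 of the 75 genes that reached 20 counts in either pool, ordered by the ratio (y axis, log scale) of its share of all members' counts in AZD5363+MK1775+anti-PD-1 to that in control, with 95% exact conditional intervals; solid points meet the rule of size and some genes discussed in the text are labelled. Rps7 is lowest at 0.219 and Rplp2 highest at 3.91.

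An additive fit over all 6 pools (edgeR quasi-likelihood, inhibitor arm and antibody as terms) called none of the 74 genes it could test. For the antibody the median log2 change was -0.94, against 0.08 for all 4912 genes tested, and 67 of 74 were below 0. In that effect 12 genes (16.2%, against 2.12% of all genes) had an unadjusted p under 0.05, and the smallest edgeR adjusted p was 0.653, that of Rpl37 at -2.83 with an SE of 0.93. The percentages of all genes called were 0.102% higher and 0.0407% lower. For AZD5363+MK1775 the median was -0.63 against -0.08 for all genes, and 4 genes (5.41%, against 8.61% of all genes) had an unadjusted p under 0.05. The smallest edgeR adjusted p in that effect was 0.37 (Rps7, -2.04), and 1.28% of all genes were called higher and 0.0611% lower. For KS100 the median was -0.63 against -0.47 for all genes, 1 gene (1.35%, against 19.0% of all genes) had an unadjusted p under 0.05, and 7.21% of all genes were called higher and 0.489% lower. DESeq2 called 0 genes in each effect, with 18, 5 and 2 at an unadjusted p under 0.05. Without the control pool or without the anti-PD-1 pool, edgeR called Rpl37 lower with the antibody (adjusted p = 0.0134 and 0.0142). The medians also depended on single pools: the antibody median was -0.48, -0.58 and -0.48 without AZD5363+MK1775+anti-PD-1, without KS100 and without KS100+anti-PD-1, the AZD5363+MK1775 median was -0.09 without anti-PD-1, and the KS100 median was 0.31 without anti-PD-1 and -2.30 without KS100.

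Related lists are read against the same backgrounds, 14.9% higher and 8.02% lower in AZD5363+MK1775+anti-PD-1 and 4.59% and 2.86% in KS100+anti-PD-1. The other 13 TOP messages, most of them for translation factors, had a summed ratio to control of 1.07 (1.02 to 1.13) in AZD5363+MK1775+anti-PD-1 and 0.302 (0.217 to 0.408) in KS100+anti-PD-1. In the first pool 1 was higher, the poly(A)-binding protein gene Pabpc1 at 6.01 (5.41 to 6.67) with 639 of the list's 1737 counts, and 1 was lower, the elongation factor gene Eef1b2 at 0.338 (0.293 to 0.389). Without Pabpc1, an alternative chosen after seeing the data, the sum was 0.725 (0.681 to 0.771) in the first pool and 0.223 (0.149 to 0.321) in the second. In the second, Eef1b2 and Eef2 were lower. Of the 4 ribosomal proteins outside the symbol rule, 3 could be compared: in AZD5363+MK1775+anti-PD-1 Fau was higher at 4.37 (3.77 to 5.06) and Rps3a1 lower at 0.469 (0.330 to 0.648), and in KS100+anti-PD-1 Rack1 was lower at 0.134 (0.0493 to 0.293). Among 25 ribosome biogenesis genes 8 were higher and 1 lower in AZD5363+MK1775+anti-PD-1. Dkc1, of the pseudouridylation complex, was at 6.00 (4.41 to 8.14), Ncl, nucleolin, was at 2.57 (2.28 to 2.90), and Nop10 was lower at 0.234 (0.152 to 0.345). In KS100+anti-PD-1 1 of these was higher and 2 were lower. No test compared these lists with the ribosomal protein genes.

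**Figure D5:**
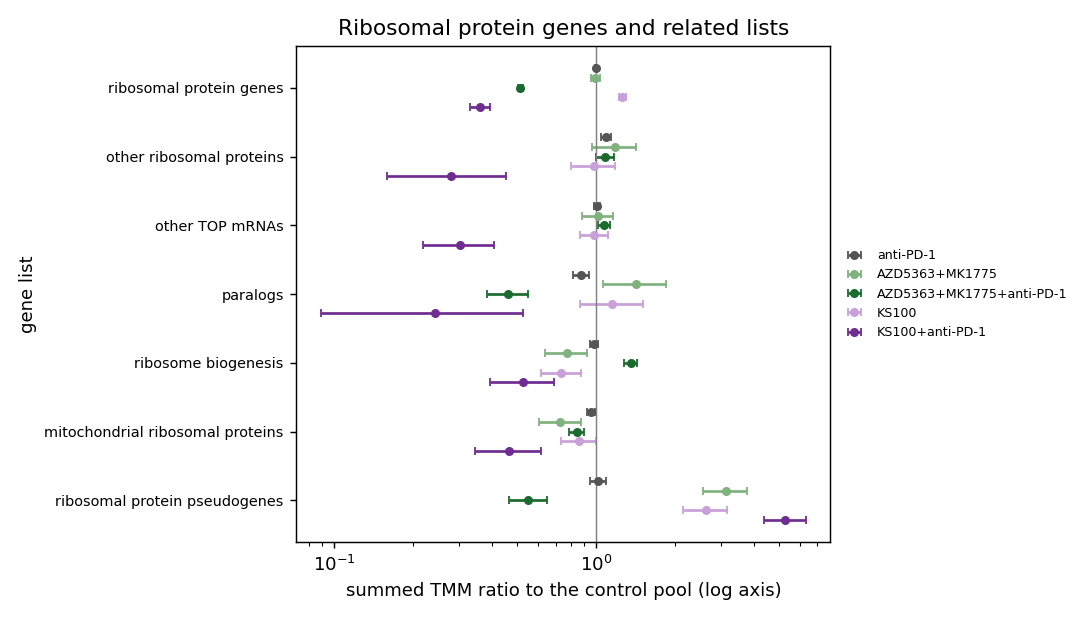
Points give the summed TMM ratio to control (x axis, log scale) of the ribosomal protein genes and 6 related gene lists (y axis) in the 5 treated pools, with 95% exact conditional intervals. In AZD5363+MK1775+anti-PD-1 the ribosomal protein genes are at 0.514 and the other TOP messages at 1.07 (0.725 without Pabpc1), and in KS100+anti-PD-1 they are at 0.360 and 0.302.

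Pseudogene copies were tallied because they make single values uncertain. The 249 annotated ribosomal protein pseudogenes had 2041, 1340, 115, 148, 116 and 122 counts, which is 1.63, 1.66, 5.14, 1.75, 3.39 and 24.0 per 100 counts of the genes themselves. Their summed ratio to control was 5.29 (4.37 to 6.35) in KS100+anti-PD-1 and 0.551 (0.463 to 0.651) in AZD5363+MK1775+anti-PD-1. The ratios were also low in genes whose last 300 bases, in 1 annotated transcript per gene, are unique among annotated transcripts. That end need not be the 3′ end that was captured and counted. Rpl31 is in this class although 21 pseudogenes are named after it. The part that shared reads play in the ratios was not tested. For the 22 genes with no shared 50-base word in the last 300 bases the summed ratio to control was 0.502 (0.482 to 0.523) in AZD5363+MK1775+anti-PD-1 and 0.349 (0.296 to 0.410) in KS100+anti-PD-1. For the 40 genes sharing more than 50% of these words it was 0.534 (0.516 to 0.551) and 0.405 (0.357 to 0.458).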

How the data were processed

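RNA was measured in 6 libraries, 1 per treatment, by QuantSeq 3′ FWD, a kit that captures transcript 3′ ends through oligo-dT priming, and sequenced for 151 cycles (MiSeq), per the labels. The authors deposited read counts per Ensembl gene as whole numbers. HISAT2 2.1.0 is listed with bcl2fastq, HTSeq and build GRCm38, per the submitters' processing notes. Which annotation release, strand setting, trimming and multi-match rule were used is not given in the sources. The table had 43629 genes, of which 42462 were found in GENCODE M21, the source of symbols and gene types, and 92 spike-in names, all at 0 and left out.

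TMM factors were computed with edgeR 4.0.16 (R 4.3.3) on the 4912 genes that filterByExpr kept, with 2 residual degrees of freedom and a common dispersion of 0.215 in the additive quasi-likelihood fit. Genes were called there at a Benjamini-Hochberg adjusted p under 0.05 over all genes tested. The SE equals the log2 change over the root of F. Pools of another treatment serve as replicates in this fit, and any interaction is part of its residual. Scripts were tested on simulated data. The background rate is the count per Mb of exon over 8742 protein-coding genes undetected in both pools without inhibitor.

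The members, gene lists and tests were chosen with earlier results of these data known. Genes were named by role, by control counts, and from each comparison all called or, where over 8 in a direction, the 8 farthest from 1 by the interval bound nearest to 1, except where stated. Single values of some members are not reported here. Alternatives were 4 other scalings, family totals, other minimums, a looser rule, DESeq2 1.42.0, no filter and leaving out each pool.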

Additional observations from a re-analysis of the deposited data

How the results depend on the processing

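With library totals the summed ratio to control was 1.02 in anti-PD-1, 1.07 in AZD5363+MK1775, 0.318 with the antibody added to it, 0.972 in KS100 and 0.254 in KS100+anti-PD-1, and within the arms it was 0.297 for AZD5363+MK1775. With nuclear protein-coding totals it was 1.02 for anti-PD-1, 1.26 for AZD5363+MK1775, 0.474 for AZD5363+MK1775+anti-PD-1 and 0.411 for KS100+anti-PD-1 against control, and 0.375 and 0.319 within the AZD5363+MK1775 and KS100 arms. With DESeq2 size factors it was 1.01 for anti-PD-1 and 0.491 for AZD5363+MK1775+anti-PD-1 against control, and 0.480 within the AZD5363+MK1775 arm. With TMM but without Rplp1 the same 3 comparisons gave 0.980, 0.463 and 0.468. Library totals moved every log2 ratio by up to -0.80 from TMM (AZD5363+MK1775+anti-PD-1 against AZD5363+MK1775). The looser rule (ratio of 1.5, interval beyond 1) called 17 genes for anti-PD-1, 19 for AZD5363+MK1775, 30 for KS100 (22 higher, 8 lower) and 46 for KS100+anti-PD-1 against control, and 47 within the KS100 arm. The share of all genes under the looser rule is not given, so these counts cannot be read as particular to the family. Scaled to the family total, which removes a shift of the whole family by construction, 19 genes were called for AZD5363+MK1775+anti-PD-1 and 2 for KS100+anti-PD-1 against control, and 13 and 1 within the arms. Library totals gave 46 within the AZD5363+MK1775 arm, without a share of all genes under that scaling beside it. Leaving out each pool, the additive fit called 0 to 1 genes for the antibody and 0 for both inhibitors, but the KS100 median turned to 0.31 without the anti-PD-1 pool. Of 492 calls of single genes under the 4 other scalings, 465 held, 27 missed the rule and 0 changed direction. Depth limits the KS100+anti-PD-1 pool most, where 3 counts are 117.6 CPM of the library total.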

Other observations

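Among 9 paralogs of ribosomal protein genes, 3 of 5 that could be compared were lower than control in AZD5363+MK1775+anti-PD-1 by the same rule of size (background 8.02%). Rpl22l1 had 579 counts in control and 19 there, a ratio of 0.249 (0.149 to 0.393), Rpl36al had 667 and 27 (0.308, 0.201 to 0.452), and Rps27l, a p53 target, had 766 and 48 (0.476, 0.348 to 0.638). The proteins of the mitochondrial ribosome, encoded by 77 genes in the table, had summed ratios to control of 0.843 (0.790 to 0.900) in AZD5363+MK1775+anti-PD-1 and 0.467 (0.345 to 0.617) in KS100+anti-PD-1, with 9 of 71 genes lower (background 8.02%) and 2 higher (14.9%) in the first and 0 lower (2.86%) and 1 higher (4.59%) in the second. These 77 genes had only 9295 counts in control in all. A gene with 480 counts in control and 0 in KS100+anti-PD-1 missed the call of lower. Most of the list could therefore not be called lower in that pool, and the 0 is no contrast with the cytosolic genes.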
